A study of Mus musculus with 6 samples.

Results

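The complement genes C1qa, C1qb and C1qc and 6 further genes of microglia, Tyrobp, Trem2, Cx3cr1, Csf1r, Ctss and Lyz2, were examined in RNA from sorted dentate gyrus cells of mice. They were chosen by name as microglial complement, receptor and adaptor genes, and all 9 symbols were found among the 55367 in the deposited table. The mice were TRAP2;Ai9, a genotype in which the promoter of Fos, an activity gene, drives a tamoxifen-dependent Cre (Fos-iCreERT2) that switches on a tdTomato reporter at Rosa26 for good. Both groups had gone through a learned helplessness procedure, a stress model in which animals stop escaping, and the sorted cells had been labelled around it. The LH+ NR group (NR below) did not run and the LH+ Run group (Run below) ran voluntarily for 28 days, with 3 Smart-seq2 libraries each. Fos drives the labelling in any cell type that switches it on, and the age, sex and number of animals and of cells per library are not given in the sources used here. Nothing in the labels says that libraries came from separate animals, so the p-values measure only the spread between libraries, which may be technical.

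C1q is the recognition molecule that starts the classical complement pathway. Its A, B and C chains are encoded by separate genes and assemble together, and microglia, the resident macrophages of the brain, are its main source there. In the developing brain C1q marks synapses that microglia then remove. TREM2 is a lipid-sensing receptor that signals through the adaptor TYROBP, CX3CR1 receives the neuronal ligand CX3CL1, and CSF1R receives the survival factors CSF1 and IL-34. Cathepsin S (Ctss) cuts the invariant chain of class II antigen presentation, and lysozyme M (Lyz2) is an antibacterial enzyme of macrophages and neutrophils.

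The values are FPKM, fragments scaled to transcript length and to the mapped fragments of the library, so levels of different genes can be compared. The number of genes at FPKM of at least 1 ranged from 5426 to 7355 per library and did not separate the groups (exact permutation p = 0.9, with 0.1 the lowest p reachable in this design). In all, 83.1% of the values in the table were 0, and the files give no read totals, so the depth is unknown. Such a 0 can be a failed estimate, and so a gene is described as listed at 0. The sort was for labelled neurons, and neuronal genes were present: Snap25 of the synaptic release machinery ranged from 169 to 454 FPKM, the kinase gene Camk2a from 37.3 to 106 and the calmodulin-binding gene Nrgn from 6.45 to 125. Every library held FPKM of at least 1 for only 3 of 15 genes on the granule neuron list, against 10 of 12 astrocyte markers. These 3 were the neuronal genes just named. Prox1, also on the granule neuron list, had 0.285 in NR replicate 1 and 0.417 in NR replicate 3.

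The 9 microglial genes were present unevenly. Of them, 2 (C1qc and Lyz2) reached FPKM 1 in all 6 libraries, and 4 did so when NR replicate 1 was left out. NR replicates 1, 2 and 3 held 2, 7 and 8 of the 9 genes at that level, and Run replicates 1, 2 and 3 held 4, 6 and 6. Their summed level was 78.7, 671 and 584 FPKM (NR) against 249.7, 1399 and 587 (Run). NR replicate 1 was the lowest and Run replicate 2 the highest, and the groups overlapped. In bulk libraries, fewer microglia and less RNA per microglial cell cannot be told apart. NR replicate 1 also had the fewest genes detected (5426), while Run replicate 2, with 6136, ranked below NR replicate 2 and Run replicate 1 in that order. The part of library complexity in these levels was not tested.

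**Figure D1:**
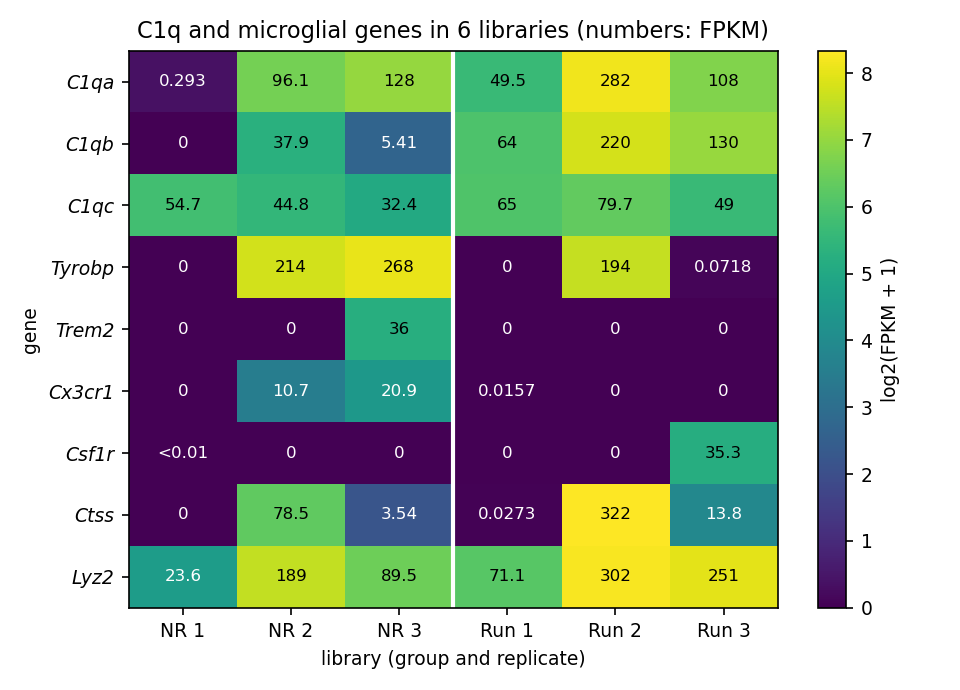
FPKM of the 9 genes (rows) in the 6 libraries (columns, NR left and Run right of the white line), with colour for log2(FPKM + 1) and the FPKM written in each cell. C1qc and Lyz2 have values throughout, while NR replicate 1 lists most of the others at or near 0 and Run replicate 2 has the highest value of 5 genes.

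The 3 chain genes of C1q lie side by side on the minus strand of chromosome 4 (mm10, GENCODE M21), in the order C1qb (136880129 to 136886187), C1qc (136889804 to 136893065) and C1qa (136895917 to 136898803). They span 18675 bases with gaps of 3616 and 2851 bases, each has at most 3 exons, and none overlaps another annotated gene. C1qb, the B chain, was listed at 0, 37.9 and 5.41 FPKM (NR) against 64.0, 220.2 and 130.1 (Run). Every Run library was above every NR library. C1qa, the A chain, had 0.293, 96.1 and 128 (NR) against 49.5, 282 and 108 (Run). Here the groups overlapped, since NR replicates 2 and 3 lay above Run replicate 1. C1qc, the C chain, had 54.7, 44.8 and 32.4 (NR) against 65.0, 79.7 and 49.0 (Run), or 44.0 ± 11.2 and 64.6 ± 15.3 (SD, n = 3 each), and its groups overlapped as well.

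C1qc stood apart from its partners in how little it varied. Its highest value was 2.45 times its lowest, while that of C1qa was 961 times its lowest and C1qb was listed at 0 in a library. The SD of log2(FPKM + 1) over the 6 libraries was 0.44 for C1qc, 2.76 for C1qa and 2.94 for C1qb. Of 1796 tested genes with a mean FPKM within 2-fold of that of C1qc, 2.34% had a lower SD. For C1qa 79.7% of 1018 such genes were steadier, and for C1qb 77.3% of 1403. The chains accordingly made up different shares of the summed C1q level from library to library. C1qc held 99.5% of it in NR replicate 1, and 25.1% and 19.6% in the other NR libraries. In Run its share was 36.4%, 13.7% and 17.1%. C1qb held 0%, 21.2% and 3.26% (NR) against 35.9%, 37.8% and 45.3% (Run). The groups did not overlap in the share of C1qb, a measure picked with its values in view and one that rests on the same values as the difference of C1qb itself. These shares carry no interval, because the files give no counts.

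**Figure D2:**
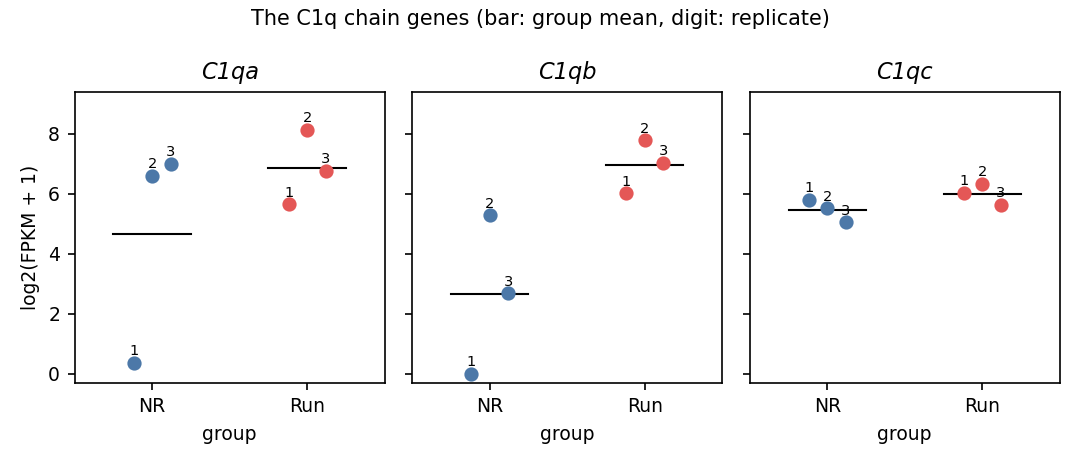
log2(FPKM + 1) of C1qa, C1qb and C1qc in each library of NR (blue) and Run (red), with the replicate number above each point and a bar at the group mean. C1qc stays within 2.45-fold over the 6 libraries, while C1qa and C1qb fall to 0.293 and 0 FPKM in NR replicate 1.

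The receptors and their adaptor were detected in few libraries. Tyrobp (chromosome 7, 30413760 to 30417585) was listed at 0 in NR replicate 1 and had 214 and 268 FPKM in NR replicates 2 and 3. In Run it was listed at 0 in replicate 1, had 194 in replicate 2 and 0.0718 in replicate 3. It was thus at 194 FPKM or more in 3 libraries and near 0 in the other 3, and 99.9% of 994 tested genes of like mean had a lower SD. Trem2 (chromosome 17, 48346401 to 48354147), the receptor that TYROBP serves, was above 0 only in NR replicate 3, at 36.0. Cx3cr1 (chromosome 9, 119901616 to 120069879) had 10.7 in NR replicate 2 and 20.9 in NR replicate 3, and at most 0.0157 elsewhere. Its annotated span overlaps 9 other genes, so reads may be shared with them. Csf1r (chromosome 18, 61100598 to 61132149) had 35.3 in Run replicate 3 and at most 0.00523 in the other libraries, including those where Tyrobp was high. Its span overlaps 2 other annotated genes. No library held all 4 of these genes at FPKM 1, and NR replicate 3 held 3 of them.

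The protease and the lysozyme gene were broader. Ctss (chromosome 3, 95526786 to 95556403) was listed at 0 in NR replicate 1 and had 78.5 and 3.54 FPKM in NR replicates 2 and 3. In Run it had 0.0273, 322 and 13.8, so Run replicate 2 was the highest library and the groups overlapped. Lyz2 (chromosome 10, 117277331 to 117282321) had 23.6, 189 and 89.5 (NR) against 71.1, 302 and 250.9 (Run). Its group means were 101 ± 83.2 and 208 ± 121 (SD, n = 3 each), with overlap. Lyz1, its neighbour 5475 bases away, matches it at 422 of 444 coding bases, and reads of either gene can be assigned to the other. Lyz1 stood at 1.19% to 3.20% of the Lyz2 level in the 6 libraries.

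Runners were compared with non-runners to ask whether these genes differed between the groups. On the scale log2(FPKM + 1), 6 of the 9 genes had FPKM of at least 1 in at least 3 libraries and were tested with limma over the whole table. Trem2, Cx3cr1 and Csf1r were not. None of the 6 passed an adjusted p of 0.05, and neither did any of the 6155 tested genes (0%). At an unadjusted p under 0.05 limma gave 304 genes (4.94%), and C1qb was the only one of the 6. C1qb was higher in Run by 4.29 ± 1.45 (SE) on the log2 scale, with a limma adjusted p = 0.715. With the further demand of a log2 difference of at least 1, 2.42% of tested genes counted as higher in Run and 2.47% as lower. For 4.76% of tested genes every Run library lay above every NR library, and C1qb was the 1 of 6 for which this held. The reverse held for 4.19% and for 0 of the 6.

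The other differences, Run minus NR in log2(FPKM + 1), were 2.20 ± 1.82 (SE) for C1qa, 1.25 ± 2.53 for Ctss, 1.23 ± 0.94 for Lyz2 and 0.55 ± 0.67 for C1qc, and -2.70 ± 2.93 for Tyrobp. Their limma adjusted p-values were 0.978 to 0.981. Positive differences were found for 5 of the 6, against 48.9% of all tested genes, and their median was 1.24, against -0.034 over all tested genes. Genes enter this count only if at least 3 libraries hold them, so it does not speak for all 9. The median fell to 0.24 without NR replicate 1 and to 0.61 without Run replicate 2, and was 2.45 without NR replicate 2 and 2.34 without Run replicate 1. C1qa depended on 1 library: without NR replicate 1 its difference was 0.051. Ctss had -0.16 without NR replicate 1 and -0.87 without Run replicate 2. C1qb had a difference of 2.97 to 5.61 with a library left out. Its sign could not change there, because its groups did not overlap.

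**Figure D3:**
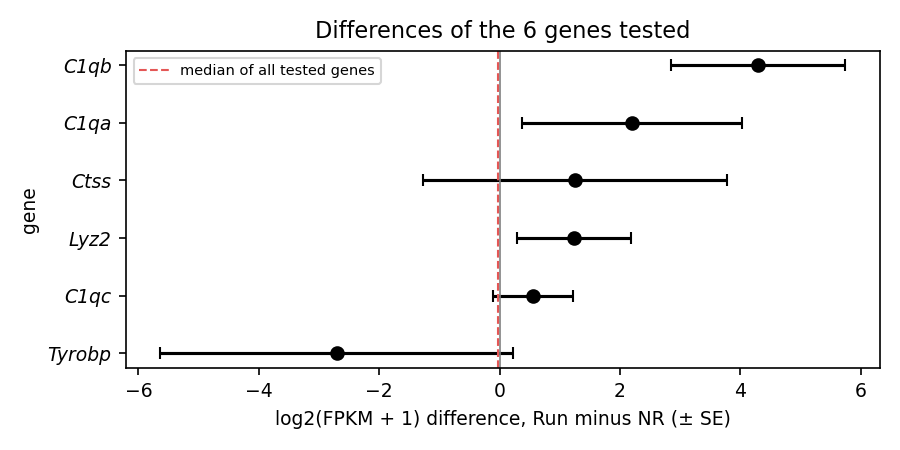
Difference in log2(FPKM + 1), Run minus NR, of the 6 genes tested (points, bars are ± 1 SE from limma), with the median of all tested genes as a dashed line. C1qb lies farthest from 0 at 4.29, Tyrobp is the only gene below 0, and no gene passed the adjusted threshold.

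Whether the 9 genes varied together was asked with the 36 pairs of genes over the 6 libraries, with exact permutation p-values adjusted over the 36 pairs by the Benjamini-Hochberg method. The pairs ranged from a Pearson r of -0.82 to 0.89, with a median of 0.20. A total of 24 were positive and 4 reached 0.8, and 3 of these joined Lyz2 to C1qa, C1qb and Ctss. No pair passed the adjusted threshold, with 4 pairs at an unadjusted p under 0.05 for r and 1 for Spearman's rho. The share of all gene pairs at that level was not computed, so these counts have no background. The smallest adjusted p was 0.3 for r and 0.6 for rho (exact permutation tests over 720 orders). With 720 orders, a lone pair among the 36 could not have come under the threshold of 0.05, however close. Pairs of genes listed at 0 in most libraries have fewer distinct orders and were further limited. The lack of a passing pair therefore does not show that the genes vary apart. The pairs lay on both sides of 0, and the median Spearman rho over them was -0.014.

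The closest pair was C1qa with Lyz2, at r = 0.89 (exact permutation p = 0.0139, adjusted p = 0.3) and rho = 0.83 (p = 0.0583, adjusted p = 0.655). Without NR replicate 1 and Run replicate 2, the libraries farthest from the median of C1qa, r was 0.50. C1qb with Lyz2 had r = 0.88 (exact permutation p = 0.0208, adjusted p = 0.3) and rho = 0.83, and r = 0.58 without NR replicates 1 and 3. Both relations rest in part on the libraries left out. Ctss with Lyz2 had r = 0.86 (exact permutation p = 0.0292, adjusted p = 0.3) and rho = 0.94 (p = 0.0167, adjusted p = 0.6). This relation was 0.88 without NR replicate 2 and Run replicate 2. Taken as deviations from the mean of each group, these 3 pairs had r of 0.86, 0.93 and 0.89.

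Among the C1q chains, C1qa and C1qb had r = 0.81 (exact permutation p = 0.0611, adjusted p = 0.367) and rho = 0.60 (p = 0.242, adjusted p = 0.677). This was -0.45 without NR replicate 1 and Run replicate 2 together. Left out alone, NR replicate 1 lowered r to 0.26 and Run replicate 2 to 0.76, so the relation rests largely on NR replicate 1. As deviations from the group means, with all libraries kept, this pair had r = 0.86. C1qc had r = -0.012 with C1qa and 0.46 with C1qb. Tyrobp followed Cx3cr1 (r = 0.72, exact permutation p = 0.0333, adjusted p = 0.3, rho = 0.65 with p = 0.2, adjusted p = 0.655), but r was -0.34 without NR replicates 2 and 3, the libraries in which Cx3cr1 was found. The lowest r, -0.82, was that of C1qc with Cx3cr1 (exact permutation p = 0.0583, adjusted p = 0.367). Trem2 and Csf1r each exceeded FPKM 1 in a single library, so their 15 pairs describe that library only.

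**Figure D4:**
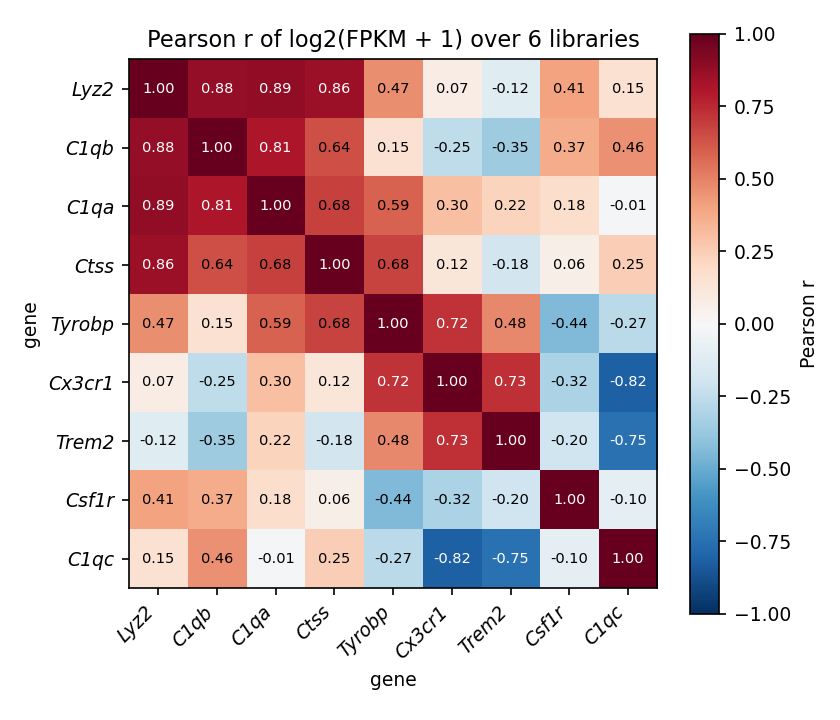
Pearson r of log2(FPKM + 1) over the 6 libraries for each pair of the 9 genes (red positive, blue negative). Lyz2, C1qb, C1qa and Ctss form the upper left square of positive values (0.64 to 0.89), while C1qc has r of -0.82 to 0.46 with the rest.

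The promoter windows of 4 genes that the comparison turns on are shown, C1qb and C1qc as neighbours of unlike steadiness, and Ctss and Lyz2 as the pair with the highest rho. They were taken from RefSeq (GRCm38.p6), which matched 6 of the 9 genes, and run from 250 bases before to 50 bases after the start site, 5′ to 3′ on the gene's strand. Capitals mark GAGGAA and GGAAGT on either strand, which are purine-rich sequences of the kind bound by PU.1, the myeloid transcription factor encoded by Spi1. The RefSeq start sites of C1qb, C1qc and Lyz2 differ from the GENCODE gene ends given above. Where both motifs overlap, a single run of capitals covers them. The windows are C1qb at chr4:136886151-136886450, minus strand, C1qc at chr4:136892865-136893164, minus strand, Ctss at chr3:95526536-95526835, plus strand and Lyz2 at chr10:117282223-117282522, minus strand.
C1qb: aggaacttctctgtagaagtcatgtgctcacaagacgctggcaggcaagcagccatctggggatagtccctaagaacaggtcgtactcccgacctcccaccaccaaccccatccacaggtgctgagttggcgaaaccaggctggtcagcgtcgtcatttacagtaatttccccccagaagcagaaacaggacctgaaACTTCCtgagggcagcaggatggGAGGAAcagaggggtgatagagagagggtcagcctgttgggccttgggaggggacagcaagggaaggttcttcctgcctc
C1qc: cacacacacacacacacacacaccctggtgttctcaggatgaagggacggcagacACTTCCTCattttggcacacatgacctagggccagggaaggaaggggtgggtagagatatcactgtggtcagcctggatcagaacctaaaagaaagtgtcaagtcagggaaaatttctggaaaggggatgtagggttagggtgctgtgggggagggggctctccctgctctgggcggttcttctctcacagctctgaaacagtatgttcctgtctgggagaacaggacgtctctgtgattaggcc
Ctss: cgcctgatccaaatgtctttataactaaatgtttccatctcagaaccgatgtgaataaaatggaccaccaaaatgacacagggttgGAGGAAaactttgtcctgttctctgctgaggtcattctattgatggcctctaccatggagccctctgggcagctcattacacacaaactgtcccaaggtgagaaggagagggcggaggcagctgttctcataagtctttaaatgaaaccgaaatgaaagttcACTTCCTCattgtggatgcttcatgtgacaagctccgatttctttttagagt
Lyz2: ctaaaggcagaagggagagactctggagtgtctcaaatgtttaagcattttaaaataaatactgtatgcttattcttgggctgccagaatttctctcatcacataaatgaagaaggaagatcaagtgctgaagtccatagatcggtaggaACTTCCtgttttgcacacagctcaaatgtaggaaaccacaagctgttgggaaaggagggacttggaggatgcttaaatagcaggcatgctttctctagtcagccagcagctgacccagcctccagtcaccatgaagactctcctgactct
At least 1 of the motifs was present in 5 of the 6 windows, all but that of Cx3cr1, and in 43.4% of the 32851 promoter windows of the table. GAGGAA was in 4 of 6 against 28.3% of all windows, and GGAAGT in 4 of 6 against 23.8%. The 2 motifs overlap in C1qc (from 195 bases before the start site) and at the start site of Ctss, and lie apart in C1qb, 53 and 30 bases before it. Steady C1qc and variable C1qb thus both held the 2 motifs. Spi1 itself had 4.48 FPKM in NR replicate 2 and 63.5 in Run replicate 2 and was listed at 0 in the other 4 libraries. A match is a description of the sequence only.

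A list of 25 other microglia markers checked the label of the gene set. NR replicates 1, 2 and 3 held 3, 9 and 7 of them at FPKM of at least 1, and Run replicates 1, 2 and 3 held 4, 14 and 7. Their summed level was 41.9, 332 and 275 FPKM (NR) against 124, 761 and 334 (Run), so NR replicate 1 was again lowest and Run replicate 2 highest. Of the 25, 6 were listed at 0 in every library, and none reached FPKM 1 in all 6. P2ry12 and Tmem119, defining genes of resting microglia, had 58.5 and 60.6 FPKM in Run replicate 2 and were listed at 0 elsewhere (these 2, like Spi1, were chosen after their values were seen). Of the 8 tested, 5 had positive differences and 0 passed limma's adjusted threshold, with a median of 0.42. The 3 tested with the highest mean were Fcer1g, Lgmn and Rnase4. Fcer1g, which encodes the signalling chain of Fc receptors, had 0, 81.2 and 26.2 (NR) against 52.4, 196.7 and 106 (Run). The lysosomal protease gene Lgmn had 0, 103 and 30.4 (NR) against 4.03, 95.6 and 17.0 (Run), and was highest in NR replicate 2. The ribonuclease gene Rnase4 had 0.0279, 25.6 and 67.3 (NR) against 0.0987, 0 and 114 (Run). Of these 3 genes, only Fcer1g was both lowest in NR replicate 1 and highest in Run replicate 2.

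Genes of class II antigen presentation, in which cathepsin S acts, had sums in the same library order as those of the 9 genes. Their summed level was 2.86, 1674 and 406 FPKM (NR) against 220.3, 2425 and 1531 (Run). Both sums were highest in Run replicate 2, followed by NR replicate 2, Run replicate 3, NR replicate 3, Run replicate 1 and NR replicate 1. For the 9 genes, Run replicate 3 and NR replicate 3 were nearly tied, at 587 and 584 FPKM. Their mean log2(FPKM + 1) had these libraries in the reverse order, at 4.07 and 4.57. Cd74, the invariant chain, had 0.0589, 538 and 121 (NR) against 20.2, 894 and 368 (Run). H2-Ab1 had 0.118, 319 and 88.6 (NR) against 0.34, 539 and 517 (Run), and H2-Aa 0.0317, 360.4 and 110.04 (NR) against 91.1, 374 and 418 (Run). Both encode chains of class II molecules. In each of these 3 genes NR replicate 1 was the lowest library, but H2-Aa was highest in Run replicate 3 and not in Run replicate 2. All 6 tested genes of the 9 on this list had positive differences, with a median of 1.98, but 0 passed limma's adjusted threshold and none had groups without overlap.

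Other macrophages and blood cells could also hold these transcripts. Of 10 border macrophage markers, 2 to 3 reached FPKM 1 in every library other than Run replicate 1, which held 0, and their summed level was 94.5, 39.6 and 31.3 FPKM (NR) against 0.979, 304 and 20.6 (Run). Among them Cbr2, a carbonyl reductase gene, had 90.6, 33.2 and 0 (NR) against 0, 5.23 and 0 (Run), and the scavenger receptor gene Stab1 had at most 7.97. The level in Run replicate 2, where the 9 genes were highest too, came mostly from 2 untested genes chosen after their values were seen. Pf4, which encodes a chemokine also made by platelets, had 0, 0.10 and 0 (NR) against 0, 262 and 16.4 (Run), and Ms4a7 had 36.4 in Run replicate 2 and at most 0.190 elsewhere. Of 12 monocyte and neutrophil markers, 7 were listed at 0 in every library, S100a8 and S100a9 among them. Ly6c2 had 28.5, 44.9 and 18.4 (NR) against 31.4, 29.7 and 50.1 (Run). Ly6c1, a related gene named below as endothelial, had 379 to 1228 FPKM. Whether reads of Ly6c1 were assigned to Ly6c2 was not tested, so Ly6c2 alone does not show monocytes. The monocyte receptor gene Ccr2 reached at most 0.0433. The 2 tested genes of the first list had negative and the 2 of the second positive differences, and 0 passed. Fewer than 3 tested genes on each list leave little to describe. The part of these cells in the levels of C1q, Ctss and Lyz2 was not tested.

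**Figure D5:**
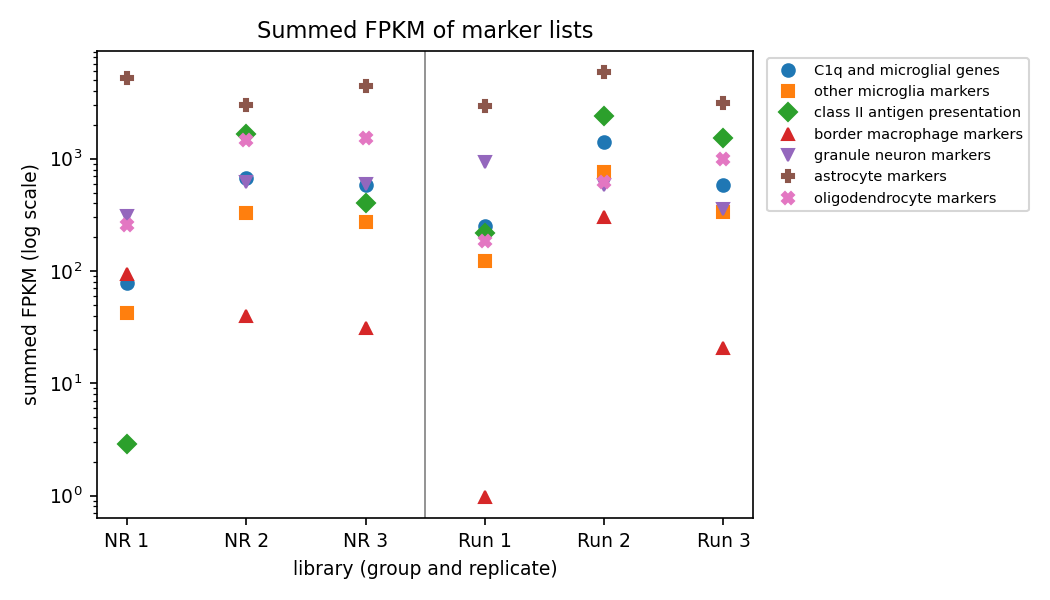
Summed FPKM on a log axis of the 9 genes and of 6 other marker lists in each library. The 9 genes, the other microglia markers and the class II genes are lowest in NR replicate 1 and highest in Run replicate 2. The border macrophage and astrocyte markers are also highest in Run replicate 2, but lowest in Run replicate 1. The granule neuron markers are lowest in NR replicate 1 and highest in Run replicate 1.

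The rest of the complement pathway was unevenly detected. Of 28 further complement genes, among them the proteases that C1q activates, the later components, regulators and receptors, 14 stayed below FPKM 1 in every library and 10 of these were listed at 0 throughout. C1ra, C1s1 and C2 were listed at 0 in all 6, as was the receptor gene Itgam, while C3 and the receptor gene C3ar1 reached at most 0.000701 and 0.00117 FPKM (chosen after their values were seen). Of the 9 tested, 6 had positive differences, with a median of 1.23, and 0 passed limma's adjusted threshold. Clu, a chaperone that also restrains the terminal complement complex, had the highest mean, at 1620, 1553 and 1835 FPKM (NR) against 635.9, 3664 and 1512 (Run). C1qbp, which encodes a mitochondrial protein first found by its binding to C1q, had 0, 12.7 and 14.8 (NR) against 104, 41.0 and 207 (Run). Its groups did not overlap, and its log2 difference was 4.01 ± 1.38 (SE, limma adjusted p = 0.746). Cr1l, a regulator that protects cells from complement, had 13.5, 35.6 and 0 (NR) against 163, 40.1 and 0.00803 (Run).

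Partners of the receptors were sparse too. Of 17 genes of TREM2 and TYROBP signalling, Syk, Plcg2, Hcst and Pik3cg were listed at 0 in all 6 libraries (chosen after their values were seen), and 4 were tested. All 4 had positive differences, with a median of 1.10, and 0 passed. Apoe, a lipid carrier that TREM2 binds, had 2946, 4346 and 4253 FPKM (NR) against 2127, 9123 and 3479 (Run). Grn, encoding the lysosomal protein progranulin, had 35.3, 59.0 and 0 (NR) against 17.1, 90.1 and 69.4 (Run), and the inhibitory receptor gene Sirpa had 7.11, 55.0 and 0 (NR) against 6.53, 67.7 and 0.636 (Run). Apoe, Grn and Sirpa were all highest in Run replicate 2. Of 15 genes of reactive microglia, 6 were tested, 4 of them with negative differences (median -0.35), and 0 passed. The highest means there belonged to Cd63, Ctsd and Ctsb, of endosomes and lysosomes, at 72.9 to 479, 12.5 to 185 and 14.7 to 115 FPKM.

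Ligands and inhibitors of these proteins differed in how broadly they were detected. Cx3cl1, the ligand of CX3CR1, was listed at 0, 0 and 14.8 FPKM (NR) against 42.0, 18.3 and 0 (Run). NR replicate 3 was the only library with both this ligand and its receptor at FPKM 1. Of the ligands of CSF1R, Csf1 had 4.61 in NR replicate 1 and 19.4 in Run replicate 2, with at most 0.0129 elsewhere, and Il34 was above 0 only in NR replicate 2 (19.8). Neither was at FPKM 1 in Run replicate 3, the library with Csf1r. Cst3, which encodes the cathepsin inhibitor cystatin C, had 6031, 6549 and 4478 (NR) against 3704, 7923 and 4507 (Run), whereas Cst7 reached at most 0.0303 and Cst6 exceeded FPKM 1 only in NR replicate 2 (4.20). Of the 9 genes on this list, which also holds Apoe, Cd74 and Clu, 5 were tested, 3 had positive differences (median 0.10) and 0 passed.

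The genes whose profile over the 6 libraries was most like the mean log2 level of the C1q chains were found among 6149 other tested genes. That mean mostly follows C1qa and C1qb (SD 2.76 and 2.94), because C1qc varied little (SD 0.44). Fcer1g came first at r = 0.99, followed by Arl6ip1 (0.98), Hnrnpd (0.98), Hepacam (0.97) and Sh3glb1 (0.97). With 6 points behind each value, 1.11% of the genes compared reached r of 0.9. Fcer1g alone of the 5 was on a microglial list. For Tyrobp the 5 nearest were Dbr1, Srgap3, Paqr6, Mrpl55 and the myelin gene Mog, each at r of 1.00, and 2.37% reached 0.9. They share its pattern of values in NR replicates 2 and 3 and Run replicate 2 and near 0 elsewhere.

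Side by side with other cell type lists, the 15 pairs among the 6 tested microglial genes had a median r of 0.59 and 26.7% of them reached 0.8. With the 3 untested genes included, the median over the 36 pairs was 0.20, or -0.014 as Spearman's rho, and 4 pairs reached 0.8. Over all pairs of tested genes the median was -0.00114 and 3.25% reached 0.8. The share at 0.8 was higher on 2 other lists, at 46.7% of 15 pairs of class II genes (median 0.80) and 50% of 6 pairs of mural cell genes (median 0.48). The other microglia markers had a median of 0.25 over 28 pairs, with 10.7% at 0.8. Oligodendrocyte markers had a median of 0.60 over 45 pairs (11.1%) and astrocyte markers 0.35 over 66 (7.58%), and no test of a difference between lists was made. The astrocyte markers Aldoc (1028 to 2655 FPKM), Gfap (440.1 to 1260.0) and Atp1b2 (93.7 to 542) and the myelin genes Mbp (21.7 to 408) and Cnp (69.6 to 217) were present in all 6 libraries. So were the endothelial genes Bsg (826 to 1846), Ly6c1 (379 to 1228) and Cldn5 (111 to 659.6) and the mural cell genes Myl9 (162 to 1457), Acta2 (149.6 to 1015) and Tagln (7.72 to 342). Of the tested genes of these lists, 9 of 12 astrocyte, 8 of 10 oligodendrocyte, 7 of 10 endothelial and 3 of 4 mural genes had negative and 8 of 10 granule neuron genes positive differences. None of these passed limma's adjusted threshold.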

How the data were processed

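RNA was measured by Smart-seq2, a full-length method with PCR amplification and no molecular identifiers, in 3 NR and 3 Run libraries, grouped by their titles, which the labels place in 1 batch. The authors deposited FPKM in a single table of 55367 symbols, none repeated. The build was mm10, and Trimmomatic 0.39, STAR 2.7.5c, StringTie 2.1.7, DESeq2 and edgeR were used, per the submitters' processing notes. Their roles, the annotation and whether counting used strand are not given in the sources used here. Reads shared between near-identical or overlapping genes may have been split. FPKM hold no counts, so the precision behind a value is unknown, and no count model was used.

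Values were analysed as log2(FPKM + 1) without further scaling, which understates changes of low genes. The 6155 genes that reached FPKM 1 in 3 or more libraries entered a 2-sided limma test (limma 3.58.1, R 4.3.3, trended variance). Benjamini-Hochberg adjusted p-values over all 6155 were held to a threshold of 0.05. The script was tested on simulated, normally distributed values. These lacked the many zeros of this table and were steadier than most of the tested microglial genes, so that test does not speak for them. Correlations used exact permutations over libraries, 2-sided. Every one of the 9 genes is named, with the 3 tested genes of highest mean of each other list (all where fewer were tested), the ligands and inhibitors, and the 5 genes most like the C1q mean and Tyrobp, apart from a gene that is not reported here. The genes and lists were chosen with earlier results of these data known. Tables and plots were made in Python 3.11.15 (pandas 2.3.3, numpy 2.4.6, matplotlib 3.10.9). The alternatives were a pseudocount of 0.1, no filter, FPKM of at least 1 in all 6 libraries, quantile normalization, rescaling each library to the same sum, the replicate number as a block, and each library left out.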

Additional observations from a re-analysis of the deposited data

How the results depend on the processing

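No alternative brought a gene, one of the 9 microglial genes or a pair of them past its adjusted threshold. Pair tests within replicate blocks could not have passed at this size. With a library left out, or as deviations from the group means, fewer orders are possible than in the main test. A lone pair could not have passed there either, so for pairs these settings decide little. The looser count, of genes at p under 0.05 before adjustment whose log2 difference was 1 or more in size, was 301, 60 when FPKM of at least 1 was required in all 6 libraries, where fewer genes are tested, and 300 to 362 with a library left out. The median difference of the tested microglial genes, 1.24, ranged from 0.24 to 2.45 with a library left out. The difference of Ctss, 1.25, ranged from -0.87 to 3.28 and changed sign without NR replicate 1 or Run replicate 2. The median r over pairs, 0.20, was -0.014 as Spearman rho, 0.042 with the replicate block, 0.31 as deviations from the group means, and 0.15 to 0.32 with a library left out. The r of C1qa and C1qc, -0.012, was 0.12 after quantile normalization, 0.42 with the replicate block and -0.438 to 0.239 with a library left out (positive without NR replicate 1, 2 or 3 or Run replicate 3), and that of C1qb and C1qc was -0.20 as deviations from the group means. The cause was not tested. The number of the 9 genes at FPKM 1 in all libraries was 2 to 4 with a library left out. The replicate block left 0 genes past the adjusted threshold and 248 at the looser one. Across genes, the deviations of libraries with the same number correlated at 0.00416 to 0.0211. Those of libraries with different numbers correlated at -0.0190 to 0.000502. Whether libraries with the same number were handled together was not tested.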
